A study of Mus musculus with 4 samples.

Results

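Malat1, Neat1, Kcnq1ot1, Ftx, Meg3 and Snhg11 are long noncoding RNAs, most of them retained in the nucleus, and their levels were described in the adult mouse stria vascularis (SV), the ion-transporting epithelium of the cochlear lateral wall that generates the endocochlear potential. The 6 genes were found by symbol, and each occurred once among the 27998 genes listed for each whole-cell library and once among the 48816 genes listed for the nucleus library. All 4 libraries came from P30 (postnatal day 30) CBA/J mice, an inbred strain, with no treatment and no altered genotype given. Whole cells, freed with trypsin, were captured 3 times, and nuclei, released by detergent lysis, were captured once. Each suspension pooled several mice, so a capture stands for a pool and not for an animal, and the sex of the pooled mice is not in the labels. The captures are called cells 1, cells 2, cells 3 and nuclei below.

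Malat1 is a very abundant transcript of nuclear speckles, the bodies in which splicing factors are stored. Neat1 is the scaffold on which paraspeckles are built, and Kcnq1ot1 is transcribed from the paternal allele antisense to Kcnq1 and silences imprinted genes around it. Ftx is a neighbour of Xist in the X-inactivation centre, Meg3 is an imprinted RNA expressed from the maternal allele, and Snhg11 is a host gene of small nucleolar RNAs. Because such RNAs are held in the nucleus, they mark barcodes that contain nuclear RNA, and damaged cells that lost their nucleus or droplets with free cytoplasmic RNA are commonly recognised by their shortage.

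The libraries were primed from stretches of A, so the A-rich parts of the members are shown first. RNase P cuts the Malat1 precursor, and the long Neat1 isoform is processed in the same way, leaving 3′ ends that carry a U-rich and a genomically encoded A-rich tract in place of an added poly(A) tail. In the GENCODE vM21 models on GRCm38 (mm10), Malat1 lies on the minus strand at chr19:5795690-5802672 and its longest transcript is a single exon of 6983 bases. Neat1 lies near it on the same strand at chr19:5824708-5845478, with a longest transcript of 20771 bases in 1 exon. A stretch of 16 bases that holds a U-rich motif, shown in the first run of capitals of each line, was the same in both transcripts, and 2 of 55450 genes had it in their longest transcript. The Malat1 stretch (chr19:5795968-5796053, minus strand) goes on to a run of 12 A, the second run of capitals, and the Neat1 stretch (chr19:5824708-5824786, minus strand) runs to the annotated 3′ end.
Malat1: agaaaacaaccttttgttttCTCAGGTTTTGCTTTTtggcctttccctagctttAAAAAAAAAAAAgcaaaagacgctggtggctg
Neat1: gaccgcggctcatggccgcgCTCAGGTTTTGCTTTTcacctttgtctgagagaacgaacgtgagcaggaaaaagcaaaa

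Kcnq1ot1 lies on the minus strand at chr7:143203458-143296549, wholly within the plus-strand gene Kcnq1 (chr7:143106362-143427042), and its single exon of 93092 bases covers exon 11 of the 16 exons of Kcnq1-201. Its transcript held 10 runs of at least 10 A, the longest of 41 A (capitals, chr7:143226925-143227005, minus strand) with 23487 bases of the transcript after it. This run is shown because it is a place inside a transcript where an oligo(dT) primer could pair, which was not tested in the counts. Per kilobase the Kcnq1ot1 transcript held 0.107 runs of at least 10 A. The longest transcripts of long noncoding genes held 0.082 per kilobase and those of protein coding genes 0.061, so its number of runs goes with its length.
Kcnq1ot1: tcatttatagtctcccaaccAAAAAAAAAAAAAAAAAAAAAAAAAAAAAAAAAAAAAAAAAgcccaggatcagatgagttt

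Ftx (chrX:103560907-103623790, minus strand) and Snhg11 (chr2:158375638-158386145, plus strand) held no run of at least 10 A in their longest transcripts. Neat1 held none in its longest transcript either. For comparison, 10.9% of 13374 long noncoding genes and 15.8% of 21951 protein coding genes held such a run. Ftx is annotated with 11 exons in its longest transcript and Meg3 (chr12:109541001-109571726, plus strand) as a long intergenic RNA, while the GENCODE version used here types Snhg11 as protein coding.

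The files hold raw counts of unique molecular identifiers (UMIs), each standing for 1 captured RNA molecule. Cells 1, 2 and 3 held 392, 1358 and 1580 barcodes with 2811309, 8113494 and 8340882 UMIs, and the nucleus library held 11057 barcodes with 22332501 UMIs. Mitochondrially encoded genes took 34.4%, 37.9% and 35.9% of the UMIs of the 3 cell captures and 19.1% of those of the nuclei. Pairs of libraries shared between 0 and 32 barcode sequences. After removal of barcodes with under 200 genes and of predicted doublets, 377, 1314, 1461 and 9723 barcodes were clustered and named from fixed marker genes, with the members and the other listed genes left out of the clustering. The 4 SV types kept 160, 545 and 480 cells and 4957 nuclei. Each name rested on the type's markers, but the clusters were not equally distinct. All 8 marginal markers were raised in the marginal nuclei, and 4 intermediate markers in each intermediate cluster of the cells. The spindle/root cells raised 7 marginal markers beside 7 of their own. A basal cluster of 35 nuclei raised 5 intermediate beside 5 basal markers.

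Malat1 separated the barcodes of every library into a low and a high group (plot of Malat1 share per barcode). Its share of a barcode's UMIs had a median of 0.111% in cells 1, 0.544% in cells 2 and 0.158% in cells 3, against 5.13% in the nuclei. No Malat1 UMI was found in 27.6%, 20.2% and 28.4% of the barcodes of the 3 cell captures and in 0.217% of the nucleus barcodes. These barcodes had median depths of 2789, 2786 and 2566 UMIs in the cells and 1211 in the nuclei, at which a count of 0 allows a share of up to 0.108%, 0.108%, 0.117% and 0.248%. A count of 0 therefore does not set the barcodes of the nuclei apart from those with a share of about 0.2%.

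**Figure D1:**
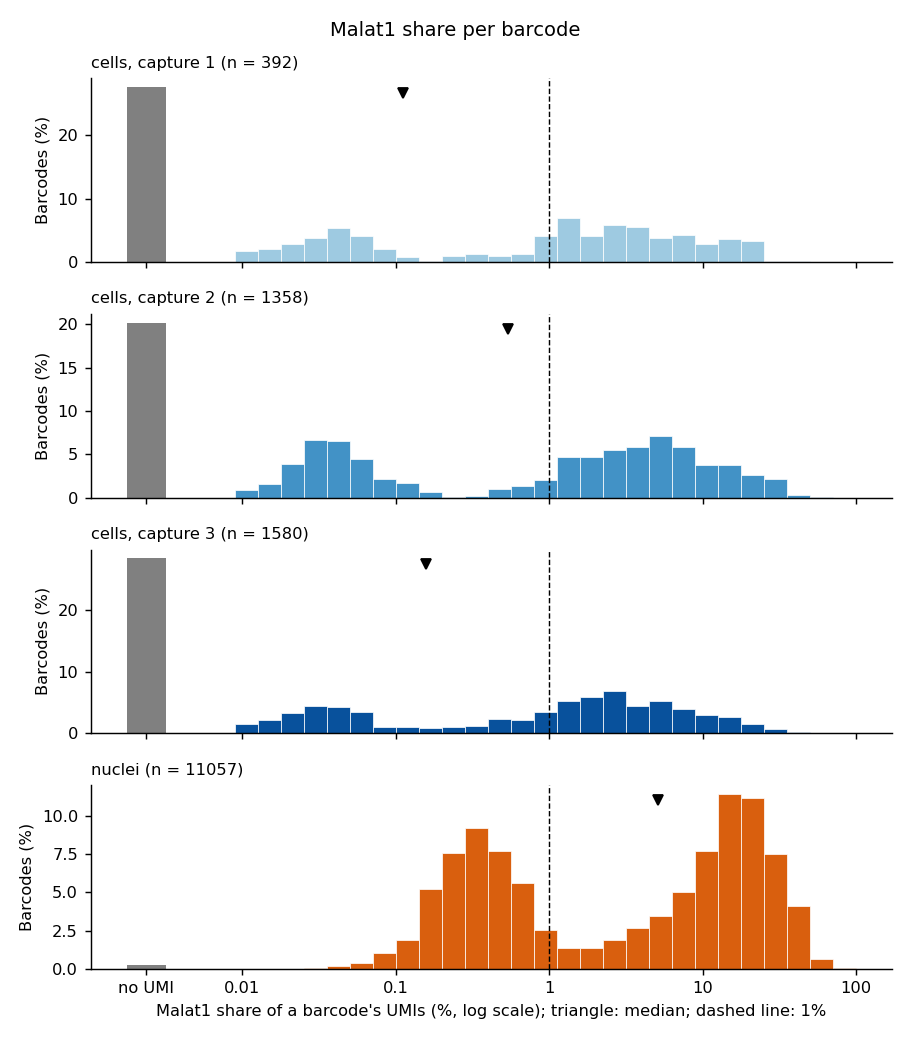
Percentage of barcodes (vertical axis) by Malat1 share of their UMIs (horizontal axis, percent on a log scale, with barcodes without a Malat1 UMI as a grey bar) in each of the 4 libraries. The triangle marks the median, which lies at 0.111%, 0.544% and 0.158% in the cell captures and at 5.13% in the nuclei, and the dashed line marks 1%, which lies near the trough in the nuclei and on the lower flank of the high group in the cells.

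A share of 1% was used to divide the barcodes. It lay near the trough between the groups in the nuclei and on the lower flank of the high group in the cells, whose trough was lower. Between the peaks, the bin of the log10 share with the fewest barcodes began at -0.85 in cells 1 (1 barcode), at -0.70 in cells 2 (1 barcode), at -0.85 in cells 3 (14 barcodes) and at 0.20 in the nuclei (152 barcodes). Under 1% were 57.7% of the barcodes of cells 1 (95% exact binomial interval 52.6% to 62.6%), 52.7% of cells 2 (50.0% to 55.3%), 59.2% of cells 3 (56.8% to 61.7%) and 41.0% of the nuclei (40.1% to 41.9%). Intervals here and below cover counting error only. The range from 0.5% to 2% held 14.8%, 11.3%, 15.9% and 12.8% of the barcodes, so 1% was no empty gap in any library. The low group of the nuclei sat higher than that of the cells: 1.83% of the nucleus barcodes were under a share of 0.1%, against 49.5%, 46.4% and 48.6% of the cell barcodes.

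The barcodes low in Malat1 were rich in mitochondrially encoded RNA, in the nuclei as in the cells. In the nuclei the median mitochondrial share was 46.7% under 1% Malat1 and 2.14% at 1% or above. In cells 1, 2 and 3 it was 47.4%, 54.2% and 57.6% under 1% and 25.3%, 28.1% and 31.4% above. Low-Malat1 barcodes of the cells were also shallower, with median depths of 3388, 3645 and 3174 UMIs against 8714, 7223 and 5422, while in the nuclei the depths were 1663 UMIs under and 1501 UMIs above. Across barcodes of a library, the rank correlation of the Malat1 share with the mitochondrial share was -0.570, -0.639, -0.499 and -0.552 in that order, and -0.529, -0.578, -0.446 and -0.463 with Malat1 taken as a share of the other UMIs only. Both shares have the same barcode total in their denominators in the first case, and depth is common to both in either case. The barcodes under 1% held 40.1%, 39.3% and 51.9% of the UMIs of the cell captures and 43.7% of those of the nuclei, so library-wide levels of the members below depend on them.

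Neat1 and Kcnq1ot1, which took no part in that split, were higher in the barcodes at or above 1% Malat1 in all 4 libraries (plot of other RNAs over and under 1%). Neat1 was at 174, 89.9, 63.5 and 87.5 CPM (UMIs scaled to a common total per library or sum) under 1% in cells 1, 2, 3 and nuclei, and at 725, 642, 524 and 1096 CPM above. The ratios of Neat1 were thus 4.17, 7.13 and 8.25 in the cells and 12.5 in the nuclei. Kcnq1ot1 was at 25.7, 5.95, 13.2 and 22.5 CPM under 1% and at 119, 124, 108 and 895 CPM above, which gave ratios of 4.62, 20.9, 8.24 and 39.7. The Kcnq1ot1 values under 1% in the cells rest on 29, 19 and 57 UMIs. In the barcodes between 0.1% and 1%, Neat1 was at 430.2, 256 and 159 CPM in the cells, between its levels under 0.1% (35.5, 48.8 and 17.8 CPM) and those at 1% or above, and at 89.7 CPM in the nuclei. Messenger RNAs for nuclear proteins differed less between the same barcodes. Those of 12 nuclear speckle proteins had ratios of 1.97, 2.94, 2.40 and 3.70 and those of 10 paraspeckle proteins, which bind Neat1, ratios of 1.60, 2.17, 2.00 and 2.35. The 84 ribosomal protein mRNAs, which are mainly cytoplasmic, were at 0.903, 1.2, 1.13 and 0.630 times their level under 1%. Without mitochondrially encoded UMIs in the total, all ratios were lower and those of Neat1 and Kcnq1ot1 stayed at 3.29 or above. No test was made, since barcodes of a library are not replicates.

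**Figure D2:**
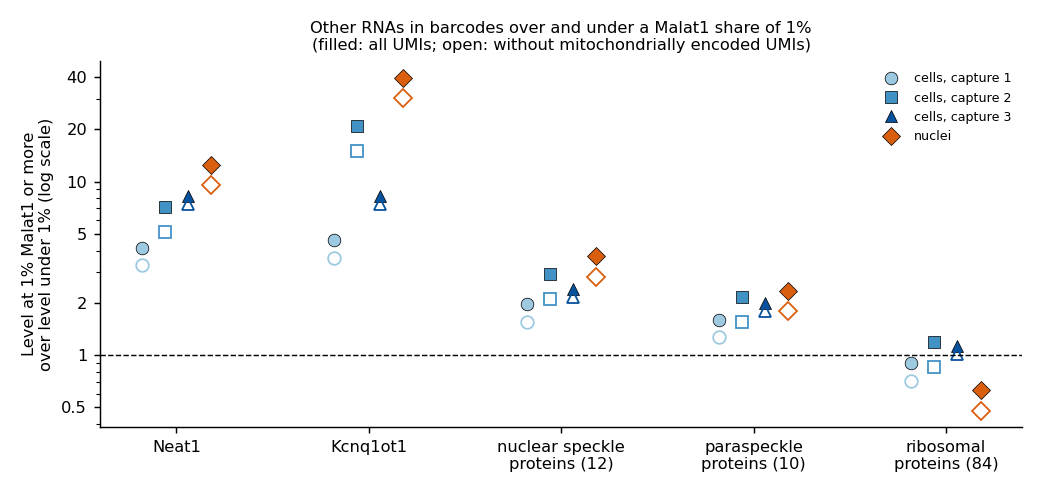
Ratio of the level in barcodes with a Malat1 share of 1% or more to the level in barcodes under 1% (vertical axis, log scale) for Neat1, Kcnq1ot1 and 3 groups of mRNAs, with 1 marker per library. Filled markers use all UMIs and open markers leave out mitochondrially encoded UMIs, and Neat1 and Kcnq1ot1 lie above the protein groups in every library.

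Most barcodes under 1% Malat1 could not be given a cell type. Of the kept barcodes under 1%, 89.1%, 91.4% and 82.6% in the cells and 87.1% in the nuclei fell in clusters that stayed unnamed, and the 4 SV types made up 9.95%, 5.42%, 5.76% and 0.970%. In the nuclei, unnamed clusters of 1822, 1478 and 354 barcodes had median Malat1 shares of 0.374%, 0.330% and 0.374% and median mitochondrial shares of 56.0%, 43.7% and 53.9%. In the cells, unnamed clusters of 666, 488 and 321 barcodes had median Malat1 shares of 0.0177%, 0.0155% and 0 and median mitochondrial shares of 59.1%, 51.1% and 78.4%. Erythroid barcodes, whose mature forms have no nucleus, were low in Malat1 without this mitochondrial share. Their median Malat1 share was 0.0204% in cells 2, 0.202% in cells 3 and 0.229% in the nuclei, with medians of 1.70% and 2.53% mitochondrial UMIs in both erythroid clusters of the cells.

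Among the SV types of the nuclei the Malat1 share was highest in intermediate and lowest in spindle/root nuclei (plot of Malat1 share by type). Marginal cells, which secrete potassium into the endolymph, had medians of 3.56%, 2.34% and 1.39% in cells 1, 2 and 3, and 14.7% in the nuclei. Intermediate cells, the pigment cells of the SV, had medians of 4.14%, 6.36% and 4.45%, and 27.5% in the nuclei. Basal cells, which seal the SV with tight junctions, had medians of 2.40%, 4.32% and 4.80%, and 17.2% in the nuclei. Spindle/root cells, at the edges of the SV and in the adjoining spiral ligament, had medians of 2.07%, 2.73% and 2.57%, and 10.3% in the nuclei. In each of the 4 types the nucleus median exceeded that of every cell capture, while the order of the types in the cells changed from capture to capture.

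**Figure D3:**
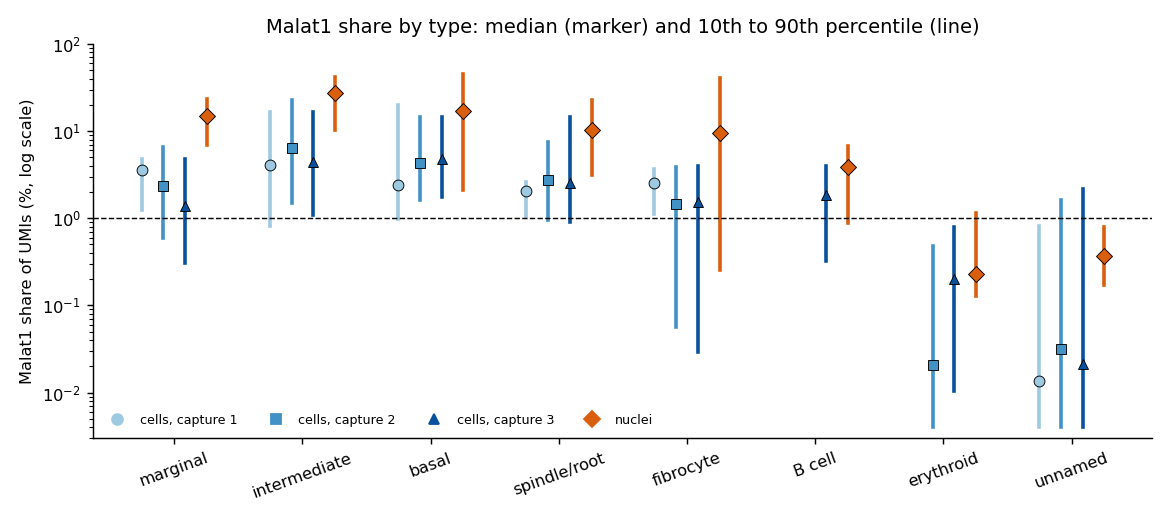
Median Malat1 share of UMIs (markers) with the 10th to 90th percentile of barcodes (lines, cut at the lower edge of the plot) by named type and library, on a log scale in percent, for groups of at least 5 barcodes. The medians of the 4 SV types lie above the dashed line at 1% in all 4 libraries, and those of the erythroid and unnamed barcodes lie below it. Some of the percentile lines cross it.

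Intermediate cells fell into clusters that differed in Malat1, Neat1 and Kcnq1ot1. A cluster of 609 cells had a median Malat1 share of 3.02% with 40.5% mitochondrial UMIs, and a cluster of 362 cells had 12.7% Malat1 with 12.7% mitochondrial UMIs. Summed by capture, Malat1 was at 35488 ± 7190 CPM in the first and 120890 ± 7708 CPM in the second (SD, n = 3 captures). Neat1 was at 447 ± 54.1 and 954 ± 104 CPM, and Kcnq1ot1 at 82.8 ± 7.97 and 142 ± 7.61 CPM. All 3 RNAs were thus higher in the cluster with less mitochondrial RNA in these means, a comparison of clusters made on the same cells and not tested. The CPM totals include mitochondrially encoded UMIs, so a larger mitochondrial share lowers the CPM of every other RNA. How much of the differences this makes up was not tested.

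Levels across the SV types were tested on UMI sums per capture and type, 12 sums in all from 3 captures, each type against the mean of the other 3 (plot of levels by type). Of the 6 members, Malat1, Neat1 and Kcnq1ot1 were among the 4504 genes that passed the filter on low counts, and Ftx, Meg3 and Snhg11 did not pass it. The 4 comparisons draw on the same sums and are not independent of each other. The p-values measure the spread of these sums that is left after type and capture are fitted, moderated over all genes. They rest on these 3 captures only. In basal cells all of Malat1, Neat1 and Kcnq1ot1 were higher, where 18.8% of all genes tested were called higher and 18.5% lower. In spindle/root cells all 3 were lower, where 5.66% of genes were called lower and 14.8% higher. In marginal cells Malat1 and Neat1 were lower (17.9% of genes were called lower and 18.6% higher), and in intermediate cells Malat1 was higher (21.8% of genes were called higher and 20.9% lower). Without TMM scaling the split over all genes was 533 higher and 1919 lower in intermediate, 1006 and 621 in marginal and 1002 and 138 in spindle/root cells, against 984 and 942, 839 and 805, and 666 and 255 with it.

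Malat1 was at 31173, 24575 and 21252 CPM in the marginal cells of cells 1, 2 and 3 and at 49011, 68241 and 48368 CPM in the intermediate cells. It was at 39289, 50577 and 71386 CPM in basal and at 20211, 32262 and 37610 CPM in spindle/root cells. Every intermediate value exceeded every marginal and spindle/root value, while the intermediate and basal values overlapped. By edgeR's quasi-likelihood test, Malat1 in intermediate cells was 1.05 higher on the log2 scale (SE 0.162, adjusted p = 3.4e-07) and higher than the mean of the other types in 3 of 3 captures. In basal cells it was 0.59 higher (SE 0.166, adjusted p = 0.0036), also in 3 of 3 captures, but by 0.32 without cells 3 and by 0.27 with 20 principal components, and the call was lost in both. In marginal cells its log2 fold change was -0.92 (SE 0.181, adjusted p = 5.4e-05) and in spindle/root cells -0.72 (SE 0.178, adjusted p = 0.0018), each in 3 of 3 captures. The spindle/root call was lost where sums of under 10 cells were left out (-0.56), where barcodes with under 500 genes were left out (-0.11), and under 2 other clusterings. Which cells are named marginal weighs on the marginal values. At clustering resolution 1.2 in place of 0.8, 33, 143 and 103 cells of the captures had that name in place of 10, 34 and 25, with median Malat1 shares of 0.0207%, 0.0305% and 0.0319%, and the log2 fold change of Malat1 in them was -1.70. Without TMM scaling Malat1 was 0.65 higher in intermediate cells and still called. Median mitochondrial shares of the clusters behind these sums were 29.6% and 10.6% in marginal, 40.5% and 12.7% in intermediate, 22.4% and 17.9% in basal and 12.5% in spindle/root cells, and with mitochondrial genes left out 4 member and type pairs were still called higher and 5 lower.

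**Figure D4:**
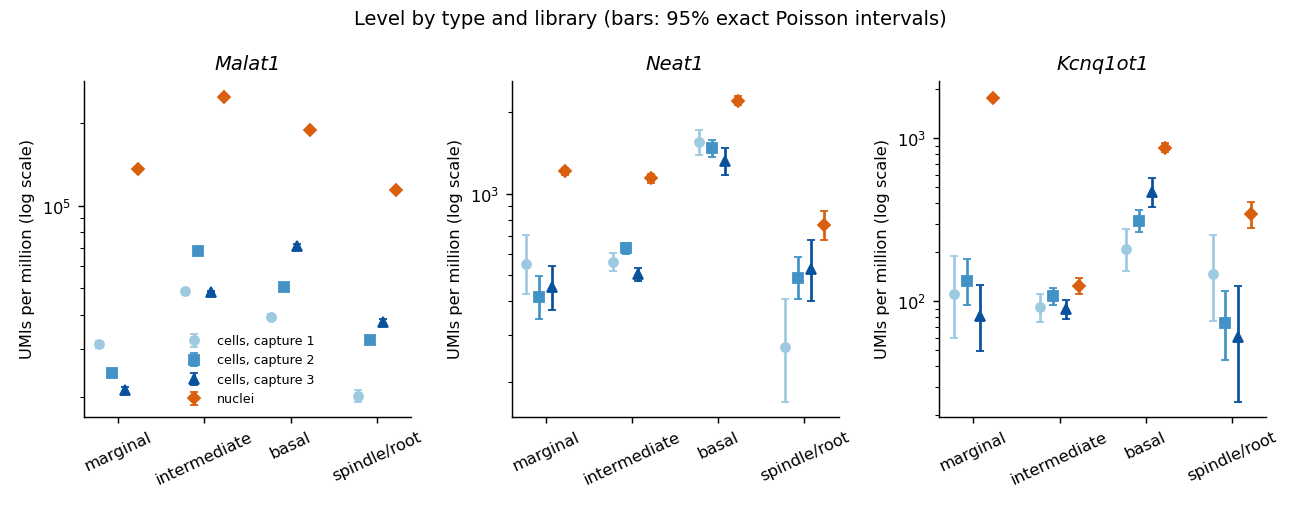
Malat1, Neat1 and Kcnq1ot1 in CPM (vertical axes, log scale) in the 4 SV types, with 1 marker per library and 95% exact Poisson intervals as bars. Basal cells hold the highest Neat1 values of each library, and the nucleus value of Kcnq1ot1 in marginal cells, 1773, stands far above the cell values of that type.

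Neat1 was highest in basal cells of every library. It was at 1549, 1472 and 1319 CPM in the basal cells of the 3 captures, against 550, 413 and 450 CPM in marginal, 559, 627 and 502 CPM in intermediate and 270.0, 489 and 524 CPM in spindle/root cells. No basal value overlapped with any other type, and the other types overlapped with each other. The nuclei held 2211 CPM in basal, 1209 in marginal, 1140 in intermediate and 763 in spindle/root cells, so basal nuclei were again at the top. The spindle/root value pools clusters of 95, 33 and 73 nuclei at 1292, 607 and 274 CPM, and the first of these was not below marginal or intermediate nuclei. In the test Neat1 was 1.56 higher in basal cells on the log2 scale (SE 0.158, adjusted p = 1.6e-11), and its log2 fold change was -0.77 in marginal (SE 0.187, adjusted p = 8.7e-04) and -0.92 in spindle/root cells (SE 0.196, adjusted p = 3.0e-04). The marginal call was lost without cells 2 (-0.63). In intermediate cells the fold change was 0.13 (adjusted p = 0.58), and without TMM scaling, which moved the median of all genes in intermediate cells to -0.39, it was -0.27. After thinning to 1000 UMIs, Neat1 was seen in 66.4% of basal cells on average and in 78.4% of basal nuclei, and in 4.87% of erythroid nuclei, whose median depth was 5319 UMIs against 1547 in basal nuclei before thinning.

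Kcnq1ot1 was highest in basal cells among the cell captures and in marginal cells among the nuclei. In cells 1, 2 and 3 it was at 209, 312 and 468 CPM in basal, 112, 133 and 81.1 CPM in marginal, 92.1, 107 and 89.4 CPM in intermediate and 147, 73.4 and 60.1 CPM in spindle/root cells. The basal values lay above all others, and the remaining types overlapped. The log2 fold change was 1.74 in basal cells (SE 0.200, adjusted p = 3.7e-09, 3 of 3 captures) and -1.05 in spindle/root cells (SE 0.306, adjusted p = 0.010, lower in 2 of 3 captures), and the latter call was lost without cells 2 (-0.75), at resolution 1.2 (-0.71), with 20 principal components (-0.54), with the listed genes allowed in clustering (-0.41) and with at least 500 genes (-0.38). It was -0.50 in marginal (adjusted p = 0.14) and -0.20 in intermediate cells (adjusted p = 0.47), where neither passed. The intermediate value was -0.59 and called without TMM scaling. Under 5 other settings, 4 of clustering or cell filter and 1 that added a further marginal-like cluster, the marginal value lay between -1.79 and -0.88 and was called. These sums hold 72 UMIs of Kcnq1ot1 in the marginal and 37 in the spindle/root cells of the 3 captures together.

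The marginal cells, too, fell into clusters that differed in the members. A cluster of 29 cells with a median of 10.6% mitochondrial UMIs held 57 of the 72 Kcnq1ot1 UMIs, at 162, 390 and 206 CPM in cells 1, 2 and 3 (268 CPM over the captures, 95% exact Poisson interval 203 to 347). A cluster of 40 cells with 29.6% mitochondrial UMIs held the other 15, at 65.7, 28.8 and 28.8 CPM (33.9 CPM over the captures). The first was thus higher in every capture, and its interval overlapped with those of both basal clusters, at 355 CPM (295 to 424) and 303 CPM (261 to 350). Malat1 was at 44130 and 15056 CPM and Neat1 at 681 and 341 CPM in the same order. The pooled marginal value above therefore depends on the share of each cluster, and the part of mitochondrial RNA in the difference was not tested.

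In the nuclei Kcnq1ot1 reached 1773 CPM in marginal cells (95% exact Poisson interval 1734 to 1813, 7751 UMIs), which held 79.1% of its UMIs in the kept nuclei. Basal nuclei held 878 CPM, spindle/root nuclei 343 CPM and intermediate nuclei 125 CPM, and none of the intervals overlapped. The marginal nuclei were thus at 16.3 times the mean of the marginal cells, while the ratio was 2.66 in basal, 3.66 in spindle/root and 1.30 in intermediate cells. With mitochondrially encoded UMIs left out of the totals these ratios were 13.6, 2.52, 3.42 and 0.919, so that of intermediate cells turned. For Malat1 the same ratios ran from 3.52 to 5.32 over the 4 types and for Neat1 from 1.53 to 2.57. After thinning to 1000 UMIs, Kcnq1ot1 was found in 77.7% of marginal, 50.6% of basal, 27.6% of spindle/root and 10.9% of intermediate nuclei, and in 1.69% of erythroid nuclei (median depth 5319 UMIs against 1392 in marginal nuclei before thinning). Unthinned, the shares were 87.4%, 64.1%, 35.3% and 17.2%.

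Kcnq1, the potassium channel gene in which Kcnq1ot1 lies, was used as a marginal marker, so its own excess in marginal cells is no result. Its level in the nuclei was 1758 CPM in marginal, 454 in basal, 311 in spindle/root and 106 CPM in intermediate cells. Marginal nuclei thus held the highest level of both genes and intermediate nuclei the lowest. In marginal cells of cells 1, 2 and 3, Kcnq1 was at 636, 382 and 555 CPM, and Kcnq1ot1 at the 112, 133 and 81.1 CPM given above. The paper names the Cell Ranger pipeline with default settings. Whether counting used strand, and whether introns were counted in the nuclei, is not given in the sources used here. Reads of Kcnq1ot1 and of Kcnq1 over their common stretch may therefore not have been kept apart.

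Among the imprinted genes near Kcnq1ot1, Cdkn1c, an inhibitor of cyclin-dependent kinases, was at 580, 593 and 614 CPM in basal cells of the 3 captures. It was 6.32 higher there on the log2 scale (adjusted p = 7.4e-28), and its log2 fold change was -5.03 in marginal (adjusted p = 3.5e-07) and -3.01 in intermediate cells (adjusted p = 0.012). Basal cells thus held the highest level of Kcnq1ot1 and of Cdkn1c in the cell captures. In spindle/root cells the 2 genes went opposite ways in the edgeR test. Cdkn1c was 1.72 higher there (adjusted p = 0.0074), while the log2 fold change of Kcnq1ot1 was -1.05. In the nuclei Cdkn1c was at 86.8 CPM in basal and 2.97 CPM in marginal cells, while Kcnq1ot1 was highest in marginal ones. Tssc4, a further gene of that region, was 1.55 higher in marginal cells (adjusted p = 6.7e-07). Of the 6 genes listed around Kcnq1ot1, 4 were tested, of which 1 was higher and 2 were lower in basal cells. Over all genes tested, 18.8% were called higher and 18.5% lower there. The 2 lower genes were Tssc4 (-0.78) and Kcnq1 (-1.82), and Kcnq1 was itself a marker used to name the types.

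Over whole libraries, Malat1, Kcnq1ot1 and Ftx were at least 2 times as high in the nuclei as in every cell capture. That criterion was met by 32.0% of 16488 genes and by 3 of the 6 members. These genes stood in both gene lists and had at least 10 UMIs over the 4 libraries together. UMIs of the nuclei alone could thus meet the minimum, and such genes add to the 32.0%. Malat1 was at 27816, 33552 and 22765 CPM in cells 1, 2 and 3 and at 84168 CPM in the nuclei, 3.00 times the mean of the captures. Kcnq1ot1 was at 81.5, 77.6 and 59.0 CPM in the cells and 514 CPM in the nuclei (ratio 7.06), and Ftx at 2.49, 2.34 and 2.76 CPM in the cells and 19.2 CPM in the nuclei (ratio 7.58). All of these nucleus values lay outside the range of the cell captures. Without mitochondrially encoded UMIs in the totals, the lowest ratio of Malat1 over the captures was 1.93 and it no longer met the criterion. Neat1 was at 504, 425 and 285 CPM in the cells and 655 CPM in the nuclei, a ratio of 1.62. Meg3 was at 2.49, 11.5 and 14.3 CPM in the cells and 14.7 CPM in the nuclei, and Snhg11 at 2.49, 3.70 and 1.2 CPM in the cells and 4.75 CPM in the nuclei. The nucleus value of Meg3 was close to that of cells 3, and its ratio of 1.56 ran from 1.03 to 5.90 over single captures. The median ratio of all genes measured was 1.35. With 1 nucleus library there is no replicate check. The nucleus preparation, its gene list, its pool of mice and its mix of types cannot be told apart from the nucleus itself. Marginal barcodes were 2.65%, 2.59% and 1.71% of the kept barcodes of cells 1, 2 and 3 and 26.6% of those of the nuclei. Within types the Kcnq1ot1 ratio ran from 1.30 in intermediate to 16.3 in marginal cells.

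Other long noncoding RNAs gave a mixed picture. Of 27 listed, 12 could be compared, with a median ratio of 1.48. The others had too few UMIs or, in most cases, gave no counts to compare, which says nothing of their level. Lncpint, Airn and Pvt1 were at least 2 times as high in the nuclei as in every cell capture. Snhg6, Snhg12 and Epb41l4aos were lower in the nuclei than in every cell capture (ratios 0.348, 0.615 and 0.677), as were Xist and Tsix. For Xist and Tsix this cannot be told apart from the sex of the pooled mice, which is not in the labels. Y-linked Ddx3y was at 47.0, 30.8 and 21.8 CPM in cells 1, 2 and 3 and at 116 CPM in the nuclei. Rmst also met the criterion, but with 2, 1 and 0 UMIs in the cells it passed the minimum through its 190 UMIs in the nuclei. With Rmst, 4 of the 12 met it, near the 32.0% of all genes measured, so the count sets these RNAs apart from other genes in no way. Lncpint was at 7.11, 7.27 and 5.87 CPM in the cells and 172 CPM in the nuclei. Airn, an imprinted antisense RNA like Kcnq1ot1, was at 1.07, 0.986 and 1.56 CPM in the cells and 45.5 CPM in the nuclei. Of the mRNAs for 10 paraspeckle proteins 2 met the criterion and of those for 12 nuclear speckle proteins 0, beside the same 32.0% of all genes. Their median ratios were 1.21 and 1.29, beside 1.35 over all genes.

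The mRNAs of proteins found in paraspeckles and nuclear speckles were compared across the same SV types. Of 10 paraspeckle proteins, 7 were tested. In intermediate cells 3 of the 7 were called higher and 0 lower, beside 21.8% and 20.9% of all genes tested. In marginal cells the counts were 0 and 2 (18.6% and 17.9% of all genes). In basal cells they were 0 and 1 (18.8% and 18.5%) and in spindle/root cells 1 and 0 (14.8% and 5.66%). In intermediate cells Cpsf6 (1.65) and Sfpq (0.61) were among those higher, and of these Cpsf6 alone was called without TMM scaling. In marginal cells Sfpq was lower (-0.77). All 12 nuclear speckle proteins were tested. Son (0.72), Srsf2 (0.57) and Sf3b1 (0.47) were higher in intermediate cells, and none of them was called without TMM scaling. These 3 of 12 are near the 21.8% of all genes called higher there. In basal cells Srsf3 was higher (0.42) and Srsf2 lower (-0.56), beside 18.8% and 18.5% of all genes. None of the 12 was called in marginal or spindle/root cells. The median log2 fold changes over the tested paraspeckle and nuclear speckle genes were 0.36 and 0.28 in intermediate cells, where that of all genes was 0.01.

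Snhg11 was rare and was found mainly in spindle/root and basal cells (plot of the rare members). The 4 SV types of cells 1, 2 and 3 held 6, 27 and 8 of its UMIs. Basal cells had 13.1, 23.1 and 28.4 CPM and spindle/root cells 36.8, 57.1 and 17.2 CPM, with 0 UMIs in marginal cells of any capture and 1 UMI in intermediate cells. Of its 47 UMIs in the kept cells, 21 lay in basal and 19 in spindle/root cells, and these 19 came from 5 cells, 1 of which gave 12. Fibrocytes held 6, from 6 cells. In the nuclei, 36 of 94 UMIs lay in a cluster of 73 spindle/root nuclei led by Ceacam16 and Epyc, at 246 CPM (95% exact Poisson interval 173 to 341), and 26 lay in basal nuclei. The other spindle/root clusters of the nuclei, of 95 and 33 nuclei, held 0 Snhg11 UMIs (upper limits 24.6 and 72.3 CPM). The level of the spindle/root nuclei thus came from that 1 cluster. Marginal nuclei held 8 and intermediate nuclei 7. Spindle/root cells held more than basal cells in cells 1 and 2 and in the nuclei, and less in cells 3, and 1 cell gave most of their UMIs in the captures. When the filter on low counts was left out, its log2 fold changes were 3.98 in basal and 4.86 in spindle/root cells and both passed, and these values depend on the prior count.

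**Figure D5:**
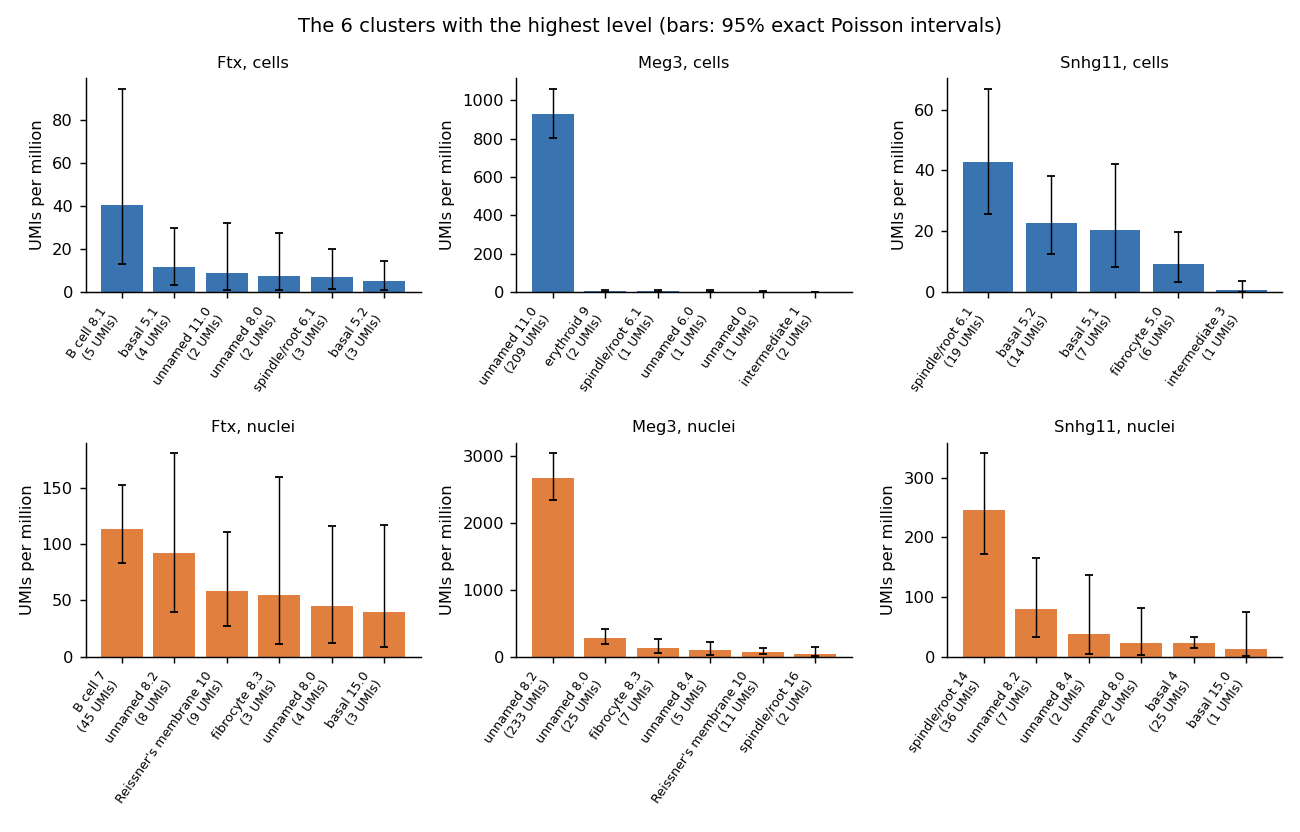
Ftx, Meg3 and Snhg11 in CPM (vertical axes) in the clusters with the highest level, at most 6, for the cells (upper row) and nuclei (lower row), with 95% exact Poisson intervals as bars and the UMIs of each cluster under its name. Meg3 stands in 1 unnamed cluster of each kind, at 927 in the cells and 2668 in the nuclei, and Snhg11 is highest in 1 spindle/root cluster of each kind.

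Meg3 was found mainly in barcodes outside the SV types. In the cells, 209 of its 216 UMIs in kept cells lay in an unnamed cluster of 38 cells, at 927 CPM. The leading genes of that cluster were Ccl11, Meg3, Aard and Dcn, and it raised 4 of the fibrocyte and 3 of the endothelial markers. That cluster held 2, 17 and 19 cells of cells 1, 2 and 3, with 6, 87 and 116 Meg3 UMIs, and the other kept cells of these captures held 1, 3 and 3. All 3 captures thus had Meg3 in that cluster. Of the 4 SV types, intermediate cells held 2 UMIs and spindle/root cells 1. The named fibrocytes of the cells held 0. In the nuclei, 233 of 320 Meg3 UMIs lay in an unnamed cluster of 29 nuclei led by Prl, Meg3, Mest and Fam155a, at 2668 CPM, of which 16 had a Meg3 UMI. Prl encodes prolactin, a hormone of the pituitary, and Cga, the common subunit of pituitary glycoprotein hormones, was among the leading genes too. The SV nuclei held 22 Meg3 UMIs, of which 9 were in marginal, 2 in intermediate, 5 in basal and 6 in spindle/root nuclei. The leading genes of the cluster in the cells and of the cluster in the nuclei differed apart from Meg3. A further unnamed cluster of 54 nuclei, which shares Itga8, Dcn and Sdpr among its leading genes with the cluster in the cells, held Meg3 at 283 CPM (25 UMIs in 16 nuclei). Meg3 itself was kept out of the clustering.

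Ftx was found at low levels in all 4 SV types and higher in B cells. The SV nuclei held 28.4 CPM in marginal (124 UMIs), 31.9 CPM in intermediate (80 UMIs), 22.3 CPM in basal (27 UMIs) and 31.7 CPM in spindle/root cells (11 UMIs), and all of their exact Poisson intervals overlapped. B cells held 114 CPM in the nuclei (interval 82.9 to 152, 45 UMIs), above the interval of each SV type. In the cells, B cells held 5 of the 49 kept Ftx UMIs, all in cells 3. The SV types of the cell captures held 3, 19, 7 and 3 Ftx UMIs in marginal, intermediate, basal and spindle/root cells, too few to order them at this depth. Xist, the X-inactivation RNA whose gene lies beside Ftx, was at 161, 317 and 343 CPM in the cells and at 0.806 CPM in the nuclei. The sex of the pooled mice is not in the labels and cannot be told apart from the nucleus preparation here. A link between the levels of Ftx and Xist was not tested.

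The genes whose level moved most like each member were sought over the 12 sums of 4 types and 3 captures, by Pearson's r of log2(CPM + 10), as a description with no test. For Malat1 they were Pkd1 (r = 0.924), Rnf13 (0.900) and Mcc (0.890), and for Neat1 Tgfbr2 (0.967), Evc2 (0.959) and Insig1 (0.952). For Kcnq1ot1 they included Arl3 (0.912) and Acbd5 (0.909). Among the members, Neat1 and Kcnq1ot1 had an r of 0.715, Malat1 and Neat1 of 0.648, and Malat1 and Kcnq1ot1 of 0.396. The points share captures and library totals. For Ftx, Meg3 and Snhg11, which had 32, 3 and 41 UMIs in these sums, no likeness is given.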

How the data were processed

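P30 CBA/J stria vascularis was profiled as whole cells (3 captures) and nuclei (1 capture) with 10x Genomics 3′ chemistry. The authors deposited per-library matrices of UMI counts on mm10, with Cell Ranger 2.0.0 named in the submitters' processing notes. Whether introns were counted in the nuclei, and whether counting used strand, is not given in the sources used here. The matrices hold no normalization, and no column of another sample was used.

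Barcodes with under 200 genes were removed. Predicted doublets were the barcodes with the highest Scrublet scores (scanpy 1.11.5). Their number was fixed beforehand at a rate of 0.8% per 1000 barcodes and is no count of doublets detected. Cells and nuclei were clustered apart in Seurat 5.3.0 (R 4.3.3) on 2000 variable genes without the members and other listed genes, with 41 and 43 principal components past JackStraw p of 0.0001 and resolution 0.8. Clusters were named from 95 fixed markers of 15 classes where at least 3 markers were raised and no second class came near. Names were rebuilt here and may differ from the study's.

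UMIs were summed per capture and type (at least 5 cells) and tested with edgeR 4.0.16 (TMM, filterByExpr, robust quasi-likelihood test, capture as block), each type against the mean of the other 3, two-sided, with Benjamini-Hochberg adjustment over all genes tested and a threshold of 0.05. The capture is a block because the sums of a capture come from 1 suspension; over 3853 genes, deviations of sums from the same capture had correlations of -0.01 to 0.19 (median 0.08) in 18 pairs. On simulated counts for the marginal comparison (4001 genes), 54.0% of 113 genes changed 2-fold and 98.9% of 87 changed 4-fold were recovered, and 0.676% of calls were false. Nuclei are 1 library and entered no test. Intervals are 95% exact Poisson or binomial intervals, the floor for a count of 0 is 3 counts, and detection was compared after thinning each barcode to 1000 UMIs. CPM scales UMIs to a fixed total over all genes. Sequences came from GRCm38 with GENCODE vM21, read by coordinates. Some genes of the lists and a sequence stretch are not reported here.

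The members, the gene lists and the tests were chosen with earlier results of these data known. Named genes were the members, fixed lists of other long noncoding RNAs, paraspeckle and nuclear speckle proteins and chromosomal neighbours (members of a list named by the largest absolute log2 fold change), and the 3 genes most like each member. Leading genes of clusters, Y-linked genes and ribosomal proteins were added after the data were seen. Alternatives were DESeq2 1.42.0, no TMM scaling, mitochondrial genes left out, no filter, no block, each capture left out, other clusterings, filters and denominators.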

Additional observations from a re-analysis of the deposited data

Results flagged for a closer look

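Several members differed between types in opposite directions in the 3 cell captures and in the nuclei. The difference was not tested, since there is 1 nucleus library. Values are log2 ratios of a type to the mean of the other 3 SV types, after 10 CPM was added to both. For RNAs at or below about that level, such as Ftx in the cells, this addition makes the ratios smaller. Kcnq1ot1 in marginal cells had a ratio of 1.96 in the nuclei and between -1.24 and -0.283 in the cells. It rests on 7751 UMIs in marginal nuclei and on 13, 39 and 20 UMIs in the marginal cells of cells 1, 2 and 3. In the marginal cluster with 10.6% mitochondrial UMIs Kcnq1ot1 was at 162, 390 and 206 CPM, and in the cluster with 29.6% at 65.7, 28.8 and 28.8 CPM. Ftx in intermediate cells had a ratio of 0.163 in the nuclei and between -0.487 and -0.175 in the cells. Ftx in basal cells had a ratio of -0.331 in the nuclei and between 0.0622 and 0.374 in the cells. Snhg11 in basal cells had a ratio of -0.549 in the nuclei and between 0.0523 and 1.29 in the cells. The Ftx and Snhg11 ratios of the cells rest on between 1 and 12 UMIs in the type and capture. In the nuclei the Poisson intervals of Ftx overlapped between all SV types.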

How the results depend on the processing

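Of 12 pairs of a member and a type tested, 4 were called higher and 5 lower. Without the capture block the same numbers were called, as with DESeq2, without mitochondrial genes, with doublets kept and at clustering resolution 0.4. Leaving out cells 1, 2 or 3 gave between 7 and 9 calls. Over the gene-level fold changes, which covered 16 alternatives, 170 of 192 kept their direction and side of the threshold, 12 lost the call, 7 gained it and 3 turned. The 3 that turned were Neat1 in intermediate cells without TMM scaling (-0.27) and Kcnq1ot1 in intermediate cells at resolution 1.2 (0.072) and with the listed genes allowed in clustering (0.24), none of which was called in the reported test. The calls lost most often were those of Malat1 and Kcnq1ot1 in spindle/root cells, which have 5, 22 and 14 cells in the 3 captures. With mitochondrially encoded UMIs left out of the total, 31.0% of the nucleus barcodes were under 1% Malat1 in place of 41.0%, the median share was 7.48% in intermediate cells and 15.2% in marginal nuclei, and the nucleus to cell ratio was 2.37 for Malat1, 5.58 for Kcnq1ot1 and 5.99 for Ftx. With at least 200 genes, 39.0% of the nucleus barcodes were under 1%. At resolution 1.2 the median Malat1 share of the cells named marginal was 0.0277%, with more cells under that name. An alternative added after the data were seen, which counted a further unnamed cluster with all 8 marginal markers raised as marginal, called 4 pairs higher and 6 lower. The cause of the other changes was not tested. Depth limits Ftx, Meg3 and Snhg11 most, with at most 119 UMIs in any cell capture, and the marginal and spindle/root sums of the cells, with 69 and 41 cells in all.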

Other observations

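Y-linked genes were looked at after the Xist values had been seen. Ddx3y was at 47.0, 30.8 and 21.8 CPM in cells 1, 2 and 3 and at 116 CPM in the nuclei, and Uty at 15.7, 8.26 and 5.99 CPM in the cells and 101 CPM in the nuclei. Xist was at 161, 317 and 343 CPM in the cells, on 453, 2570 and 2860 UMIs, and at 0.806 CPM in the nuclei, on 18 UMIs. All 4 libraries thus held Y-linked RNA, and the nuclei held the most of it and the least Xist. In the cells Xist was 1.06 higher on the log2 scale in intermediate cells (edgeR quasi-likelihood test, adjusted p = 0.0038), and without TMM scaling the value was 0.66 with no call. Pvt1 was at 2.13, 1.36 and 1.2 CPM in the cells and 55.6 CPM in the nuclei. Rmst had 2, 1 and 0 UMIs in the cells and 190 in the nuclei.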
